A study of Mus musculus with 6 samples.

Results

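Adipokines are hormones and other signalling proteins that fat tissue secretes, and 10 of their genes are described here: Lep (leptin), Adipoq (adiponectin), Retn (resistin), Rbp4 (retinol binding protein 4), Nampt (nicotinamide phosphoribosyltransferase), Rarres2 (chemerin), Apln (apelin), Nrg4 (neuregulin 4), Metrnl (meteorin-like) and Agt (angiotensinogen). They were chosen by gene symbol, and all 10 were found among the 22322 genes of the deposited expression table. All 10 were also among the 13829 genes with enough counts to be tested. The RNA came from epididymal white fat, the fat pad next to the epididymis, of mice that had eaten a high-fat diet over 17 weeks. There were 3 libraries of wild type mice, and CD44 KO mice, in which the cell-surface hyaluronan receptor CD44 is knocked out, gave another 3, and all 6 libraries share the diet and the fat depot. The sources used here do not give the strain, the age, any pooling of animals or which cells carry the knockout. Nothing states that the libraries of a genotype came from separate animals, so a p-value measures only the spread between these samples.

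Leptin reports the size of the fat stores to the brain through its receptor, and its messenger RNA is usually high where fat cells are large. Adiponectin is made almost only by fat cells, circulates as multimers and acts through the receptors Adipor1 and Adipor2 and through T-cadherin. The other members reach different targets: resistin, retinol binding protein 4 and chemerin act on metabolism and immune cells, apelin and angiotensinogen on vessels, and neuregulin 4 on the ErbB receptors of the liver and other tissues.

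The sequence just before the start of transcription is shown for the 2 classical adipokines, Lep and Adipoq. It is also shown for Agt and Nrg4, the 2 members that edgeR called between the genotypes at an adjusted p under 0.05. The windows are the 250 bases before the RefSeq start on GRCm38.p6, written 5′ to 3′ on the strand of the gene, with every match to a searched motif in capitals. They lie at chr6:29059971-29060220 on the plus strand for Lep, chr16:23146286-23146535 on the plus strand for Adipoq, chr8:124569707-124569956 on the minus strand for Agt and chr9:55283626-55283875 on the minus strand for Nrg4.
Lep: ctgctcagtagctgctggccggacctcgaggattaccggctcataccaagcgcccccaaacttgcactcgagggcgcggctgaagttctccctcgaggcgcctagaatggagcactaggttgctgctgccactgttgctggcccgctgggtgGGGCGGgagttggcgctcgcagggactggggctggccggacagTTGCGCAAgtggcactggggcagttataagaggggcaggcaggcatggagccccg
Adipoq: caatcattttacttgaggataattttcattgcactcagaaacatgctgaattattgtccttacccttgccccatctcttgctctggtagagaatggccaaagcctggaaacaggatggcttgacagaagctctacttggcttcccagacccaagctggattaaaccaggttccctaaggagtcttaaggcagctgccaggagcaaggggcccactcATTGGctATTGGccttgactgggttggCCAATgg
Agt: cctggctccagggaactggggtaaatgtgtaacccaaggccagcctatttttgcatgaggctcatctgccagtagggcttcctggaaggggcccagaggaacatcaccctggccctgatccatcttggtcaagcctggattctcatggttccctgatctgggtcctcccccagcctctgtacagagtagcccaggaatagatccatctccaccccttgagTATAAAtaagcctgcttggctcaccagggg
Nrg4: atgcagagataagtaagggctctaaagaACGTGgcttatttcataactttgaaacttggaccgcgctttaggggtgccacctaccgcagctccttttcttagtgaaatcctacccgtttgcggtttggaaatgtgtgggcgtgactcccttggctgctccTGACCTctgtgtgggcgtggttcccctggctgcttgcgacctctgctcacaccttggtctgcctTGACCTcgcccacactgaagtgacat
The motifs searched, on both strands, were the TATA box TATAAA, the C/EBP-type motif TTGCNNAA, the nuclear receptor half-site AGGTCA, the E-box CACGTG, the GC box GGGCGG, the CCAAT box and the hypoxia-type motif ACGTG. The E-box contains the letters of the hypoxia-type motif, so a match to the former is also a match to the latter. The Lep window held a C/EBP-type motif, TTGCGCAA, 55 bases before the start and a GC box 98 bases before it. Among all 32851 windows of the same length, 9.56% held the C/EBP-type motif and 32.74% the GC box. The Adipoq window held 3 CCAAT boxes, at 34, 27 and 7 bases before the start, the first pair on the opposite strand, and 33.85% of all windows held at least 1. The Agt window held a TATA box 30 bases before the start, found in 12.37% of all windows. The Nrg4 window held 2 half-sites on the opposite strand, at 90 and 26 bases before the start, and a hypoxia-type motif at 222 bases. Those motifs were present in 14.02% and 16.57% of all windows, and the E-box, which none of the 4 windows held, in 6.02%. The RefSeq start used for Nrg4 lies 43219 bases inside the longer gene of the GENCODE annotation. These matches describe the letters only; binding was not measured.

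The knockout was checked first. Cd44 had 3091, 10580 and 6000 counts in the wild type libraries and 28, 50 and 34 in the CD44 KO libraries, and its log2 fold change was -7.27 (SE 0.58, edgeR adjusted p = 0.0126). Libraries held 15543317 to 18765009 counts. The summed level of 13 mature adipocyte markers, led by Fabp4 and Lpl with none at 0, was 25519 to 41147 CPM (counts scaled to a common library size) in wild type and 37607 to 47787 CPM in CD44 KO. The sum of 14 macrophage markers, led by Lyz2 and Cd68, was 4704 to 10590.0 CPM in wild type, against 4739.8, 315 and 988 CPM in the CD44 KO libraries. All 14 macrophage markers had negative fold changes, none was at 0 in every library, and edgeR called 0 of them (unadjusted p under 0.05 in 5, all lower; DESeq2 called 5 lower). Without CD44 KO replicate 1, edgeR called 12 of the 14 lower, in a fit that called 2370 genes in all, 1363 of them lower. The sum of 14 epididymis markers, led by Crisp1 and Spink8, was 1.13 to 2.14 CPM in wild type but 14168.0 CPM in CD44 KO replicate 2, against 14.2 and 7.19 CPM in CD44 KO replicates 1 and 3, with Adam28 and Lcn9 at 0 in all 6. The sum of 9 mesothelial markers, led by Krt8 and Upk3b, was 6.31 to 16.5 CPM in wild type and 48.5 to 266 CPM in CD44 KO, and that of 10 fibroblast and progenitor markers, led by Dcn and Col1a1, 2271 to 2869 CPM and 806 to 1632 CPM. EdgeR called 1 of the 9 mesothelial markers higher, Krt19, where DESeq2 called 8 higher. It called 2 of the 10 fibroblast and progenitor markers lower, Thy1 and Pi16, where DESeq2 called 6 lower. Neutrophil and smooth muscle marker sums overlapped between the genotypes. The part of these cells in the results below was not tested. In bulk tissue, fewer cells of a type and less RNA per cell cannot be told apart.

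Per transcript length, Adipoq and Lep were the most abundant adipokine messages in wild type fat, and Lep stood in the fifth place in CD44 KO fat. On the FPKM scale, which divides by transcript length and library depth, Adipoq averaged 1176 ± 744 (SD, n = 3) in wild type, followed by Lep at 913 ± 433, Rarres2 at 458 ± 249, Rbp4 at 277 ± 233, Retn at 223 ± 197 and Metrnl at 84.6 ± 30.4. The ranges of neighbours in this order overlapped down to Metrnl. Agt and Nampt, at 22.3 ± 14.04 and 22.3 ± 0.730 FPKM, lay below it and overlapped each other. Nrg4, at 12.6 ± 5.98 FPKM, was separate from Nampt, its neighbour in the order, but overlapped Agt. Apln, at 3.80 ± 0.916 FPKM, lay below all others. In CD44 KO the order was Adipoq (2237 ± 457 FPKM), Retn (1129 ± 421 FPKM), Rbp4 (363 ± 97.9 FPKM), Rarres2 (284 ± 109 FPKM), Lep (264 ± 81.4 FPKM), Agt (166 ± 28.9 FPKM), Nrg4 (44.4 ± 1.24 FPKM), Nampt (31.9 ± 5.50 FPKM), Metrnl (22.5 ± 16.9 FPKM) and Apln (5.68 ± 1.05 FPKM). There the neighbours that overlapped were Rbp4 with Rarres2, Rarres2 with Lep, and Nampt with Metrnl. The 10 genes together took 0.315% to 0.877% of all counts in wild type libraries and 0.455% to 0.685% in CD44 KO libraries, which overlapped.

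Agt and Nrg4 were called higher in CD44 KO fat by edgeR, and no member was called lower. At an edgeR adjusted p under 0.05, 2 of the 10 members were called, both higher. Over all 13829 tested genes 2.62% were called, 1.74% higher and 0.882% lower. At an unadjusted p under 0.05 the count was 5 members higher and 2 lower, against 31.0% of all tested genes in either direction. In 5 members every CD44 KO library lay above every wild type library, as in 19.7% of all tested genes. In 2 members every CD44 KO library lay below, as in 18.1%. DESeq2 called 5 members, Agt, Nrg4 and Retn higher and Lep and Metrnl lower, where it called 19.7% of all genes it tested. The median log2 fold change was 0.61 over the members and 0.03 over all tested genes.

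**Figure D1:**
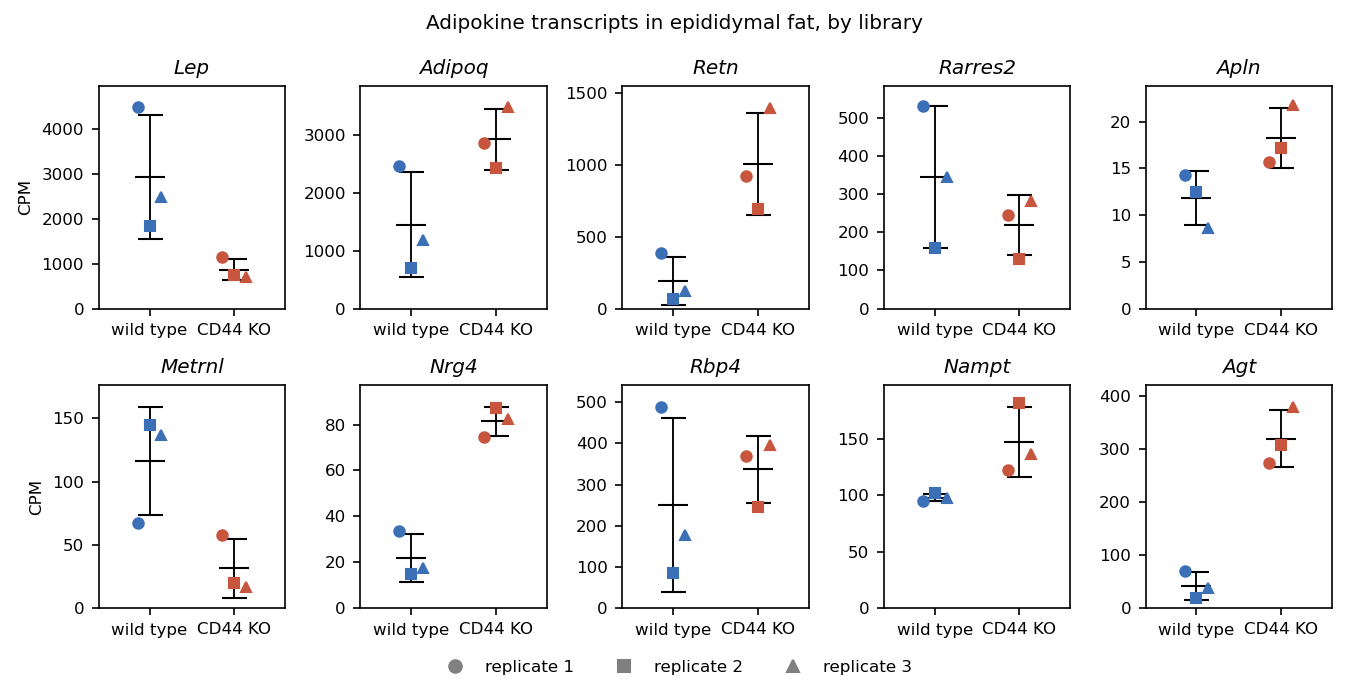
Level of each of the 10 adipokine genes in CPM on the vertical axis, in wild type and CD44 KO fat, where points are single libraries, their shape giving the replicate, short lines are means and bars are 1 SD of 3 libraries. The genotypes do not overlap for Lep, Retn, Nampt, Apln, Nrg4, Metrnl and Agt, and they overlap for Adipoq, Rbp4 and Rarres2.

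Lep (chr6:29060220-29073877, plus strand) had 4475, 1834 and 2471 CPM in the wild type libraries and 1147, 755 and 708 CPM in the CD44 KO libraries. Every CD44 KO library was below every wild type library, and wild type replicate 1 was the highest of all. The means were 2927 ± 1378 and 870 ± 241 CPM (SD, n = 3 each), a fold of 3.36 lower (95% interval 1.70 to 6.65). The log2 fold change of -1.75 (SE 0.41) had an edgeR adjusted p of 0.0682 and did not pass. Without CD44 KO replicate 1 it was -2.003 with an edgeR adjusted p of 0.0409, in a fit that called 2370 genes against 362 with all libraries. The unadjusted edgeR p of Lep was 0.00557 in that fit and 0.00432 with all libraries. Over the 13 alternative settings its log2 fold change lay between -2.003 and -1.29.

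Adipoq (chr16:23146536-23158028, plus strand) had 2471, 702 and 1187 CPM in wild type and 2859, 2427 and 3481 CPM in CD44 KO. The highest wild type library, replicate 1, lay above CD44 KO replicate 2, so the groups overlapped. The log2 fold change was 1.01 (SE 0.48, edgeR adjusted p = 0.200), and without wild type replicate 1 it was 1.64 (edgeR adjusted p = 0.0676).

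Lep and Adipoq were set against each other within each library, a ratio chosen after their values were seen that needs no scaling between libraries. There were 1.81, 2.61 and 2.08 Lep counts per Adipoq count in wild type against 0.401, 0.311 and 0.203 in CD44 KO. Every CD44 KO ratio was below every wild type ratio, and Adipoq had more counts than Lep in the 3 CD44 KO libraries and fewer in the 3 wild type libraries. The means were 2.17 ± 0.408 and 0.305 ± 0.0990 (SD, n = 3 each), and the geometric means differed 7.29-fold. The two-sided exact permutation p was 0.1, the smallest that 3 against 3 can give, and 0.138 after adjustment over the 11 ratios computed. Per 1000 counts of the 13 adipocyte markers, Lep had 109, 71.9 and 79.8 counts in wild type against 27.6, 20.1 and 14.8 in CD44 KO, a log2 difference of -2.08, or -2.70 with the geometric mean of the markers as the base. Adipoq had 60.1, 27.5 and 38.3 in wild type against 68.8, 64.5 and 72.9 in CD44 KO on that scale, a log2 difference of 0.78 without overlap. On that second base the Adipoq difference was 0.17 and the genotypes overlapped.

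**Figure D2:**
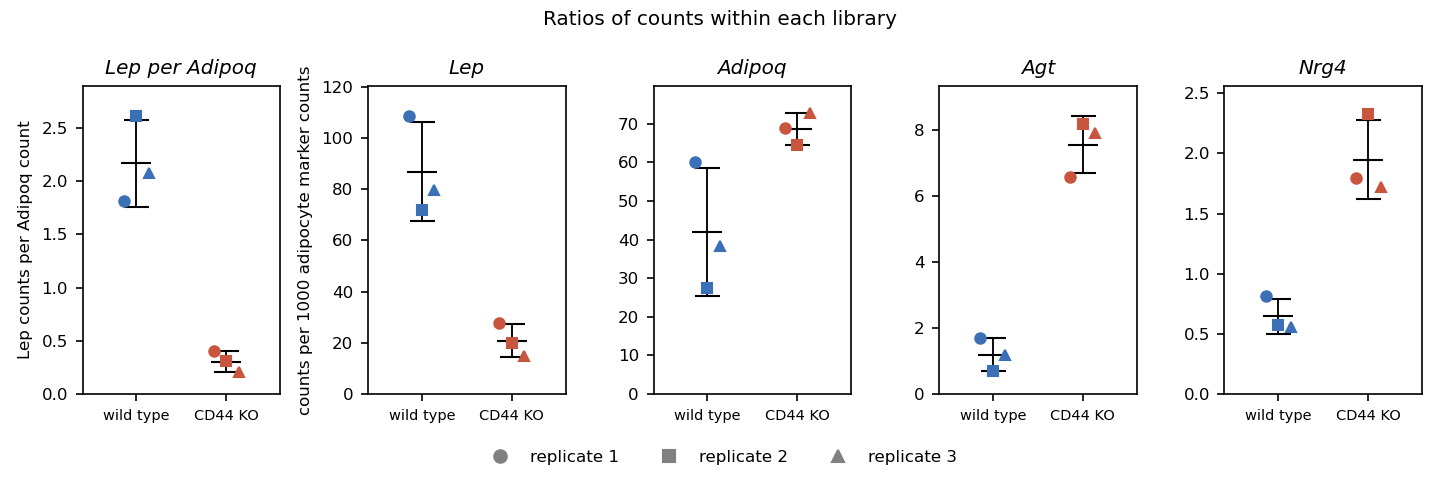
Ratios of counts within each library, with the ratio on the vertical axis and points for single libraries, for Lep per Adipoq count and for selected members per 1000 counts of 13 adipocyte markers, in wild type and CD44 KO fat. Lep per Adipoq lies between 1.81 and 2.61 in wild type and between 0.203 and 0.401 in CD44 KO.

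Retn (chr8:3655770-3660110, plus strand), which encodes the small cysteine-rich hormone resistin, had 386, 69.8 and 121 CPM in wild type and 923, 695 and 1390.2 CPM in CD44 KO. All CD44 KO libraries were above all wild type libraries. The fold of 5.22 higher (95% interval 1.67 to 16.3; log2 2.38, SE 0.68) had an edgeR adjusted p of 0.0920. Without wild type replicate 1 the log2 fold change was 3.41 and the edgeR adjusted p 0.0414. Of its paralogs, Retnla had 191, 23.6 and 51.1 CPM in wild type and 98.0, 58.9 and 214 CPM in CD44 KO (log2 fold change 0.48, edgeR adjusted p = 0.714), and Retnlb and Retnlg were too low to test.

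Rbp4 (chr19:38116629-38125281, minus strand), the carrier of retinol in blood, had 488, 86.0 and 177 CPM in wild type and 370.2, 245 and 397 CPM in CD44 KO. The genotypes overlapped, with wild type replicate 1 the highest of all libraries and wild type replicate 2 the lowest. Its log2 fold change was 0.43 (SE 0.61, edgeR adjusted p = 0.651) and 1.38 without wild type replicate 1 (edgeR adjusted p = 0.0992). Rarres2 (chr6:48569696-48572789, minus strand), whose product chemerin attracts immune cells through Cmklr1, had 529.9, 158 and 344 CPM in wild type and 246, 131 and 282 CPM in CD44 KO. These overlapped too, and the log2 fold change was -0.65 (SE 0.49, edgeR adjusted p = 0.386). Per 1000 counts of the adipocyte markers, Rarres2 had 12.9, 6.19 and 11.1 in wild type against 5.93, 3.48 and 5.90 in CD44 KO. Those ratios did not overlap, with a log2 difference of -0.95, or -1.57 with the geometric mean of the markers as the base. In the GENCODE M21 annotation 892 of the 2656 exon bases of Rarres2 are shared with Lrrc61 on the opposite strand. The estimated counts of both genes were not whole in the wild type libraries (8986.99 and 202.01 in replicate 1). The strandedness of the counting, and how it divided shared reads, are not given.

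Nampt (chr12:32819545-32853349, plus strand), the rate-limiting enzyme of NAD salvage that also occurs outside cells as visfatin, had 94.8, 102 and 97.6 CPM in wild type and 123, 182 and 136 CPM in CD44 KO. It was the steadiest member among wild type libraries, and all CD44 KO libraries were higher. The fold was 1.50 (95% interval 1.10 to 2.04), with an edgeR adjusted p of 0.105. Per 1000 counts of the adipocyte markers, Nampt overlapped between the genotypes, with a log2 difference of 0.17. With the geometric mean of the markers as the base, the Nampt difference was -0.45, again with overlap. Apln (chrX:48025146-48034853, minus strand), the peptide ligand of the receptor Aplnr, had 14.3, 12.4 and 8.66 CPM in wild type and 15.7, 17.2 and 21.8 CPM in CD44 KO. The genotypes were separate by a small margin, and the log2 fold change of 0.63 (SE 0.24) had an edgeR adjusted p of 0.144. On the 2 marker bases Apln overlapped between the genotypes, with log2 differences of 0.24 and -0.37. Endothelial cells also make Apln; the summed level of 8 endothelial markers, led by Cdh5 and Pecam1, was 708 to 1439 CPM in wild type and 889 to 1737 CPM in CD44 KO, with 8 positive fold changes and 0 called by edgeR (0 without adjustment, 0 by DESeq2), and its part was not tested.

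Nrg4 (chr9:55220222-55326844, minus strand), a growth factor that fat releases and that binds ErbB4, had 33.5, 14.6 and 17.2 CPM in wild type and 74.7, 87.4 and 82.2 CPM in CD44 KO. All CD44 KO libraries were higher, and they lay within a narrow range. The means of 21.8 ± 10.3 and 81.4 ± 6.40 CPM (SD, n = 3 each) gave a fold of 3.74 higher (95% interval 2.15 to 6.49; log2 1.90, SE 0.33, edgeR adjusted p = 0.0453). Its adjusted p was 0.0807 without CD44 KO replicate 2, 0.247 without wild type replicate 3, and 0.0526 with no filter on low counts, all by edgeR. Its exons share 368 of 6075 bases with Fbxo22 on the opposite strand and 177 with the pseudogene Gm15625. The estimated counts of Nrg4 and Fbxo22 were not whole (569.34 and 860.66 in wild type replicate 1), and how shared reads were divided is not given. Fbxo22 had 861, 799 and 879.7 counts in wild type against 1117, 804 and 1103 in CD44 KO, and its levels overlapped between the genotypes. Per 1000 counts of the adipocyte markers, Nrg4 had 0.815, 0.572 and 0.556 counts in wild type against 1.80, 2.32 and 1.72 in CD44 KO, which did not overlap. That log2 difference was 1.597, or 0.98 with the geometric mean of the markers as the base.

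Agt (chr8:124556534-124569706, minus strand), the precursor of the angiotensin peptides, had the widest fold of the 10 genes, with 69.5, 18.0 and 36.8 CPM in wild type and 273, 307 and 378 CPM in CD44 KO. The lowest CD44 KO library was above the highest wild type library by a wide margin. The means were 41.4 ± 26.0 and 320 ± 53.7 CPM (SD, n = 3 each), a fold of 7.71 higher (95% interval 3.35 to 17.8; log2 2.95, SE 0.50, edgeR adjusted p = 0.0438). Its edgeR adjusted p was 0.0747 without CD44 KO replicate 2, 0.247 without wild type replicate 3 and 0.0521 with no filter on low counts, and without wild type replicate 1 the log2 fold change was 3.56. Agt had 1.69, 0.707 and 1.19 counts per 1000 adipocyte marker counts in wild type against 6.57, 8.18 and 7.92 in CD44 KO, a log2 difference of 2.74, or 2.12 with the geometric mean of the markers as the base.

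Both Agt and Nrg4 passed the threshold in 2 of the 6 fits that left out 1 library, those without wild type replicate 1 and without CD44 KO replicate 1. They missed it without each of wild type replicates 2 and 3 and CD44 KO replicates 2 and 3. Passing followed the number of genes called over all, 310 and 2370 in the former fits and 9, 0, 100 and 7 in the latter. The unadjusted edgeR p of Agt was 0.000725 without wild type replicate 2, where it missed, and 0.00158 without CD44 KO replicate 1, where it passed. Cd44 also missed without wild type replicate 3 and without CD44 KO replicate 3 (edgeR adjusted p = 0.122 and 0.0785). In every one of these fits both fold changes were positive.

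Metrnl (chr11:121701544-121716306, plus strand), a secreted protein made by fat, muscle and macrophages, had 67.0, 145 and 137 CPM in wild type and 58.0, 19.7 and 16.3 CPM in CD44 KO. The genotypes did not overlap, but the lowest wild type and the highest CD44 KO library, both numbered 1, lay close together. The fold was 3.70 lower (95% interval 1.42 to 9.63; log2 -1.89, SE 0.57) with an edgeR adjusted p of 0.09995. Without CD44 KO replicate 1 the log2 fold change was -2.69 and the edgeR adjusted p 0.0226. The macrophage marker sum was likewise lowest in replicate 1 among wild type libraries and highest in replicate 1 among CD44 KO libraries, and its part in the Metrnl difference was not tested.

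**Figure D3:**
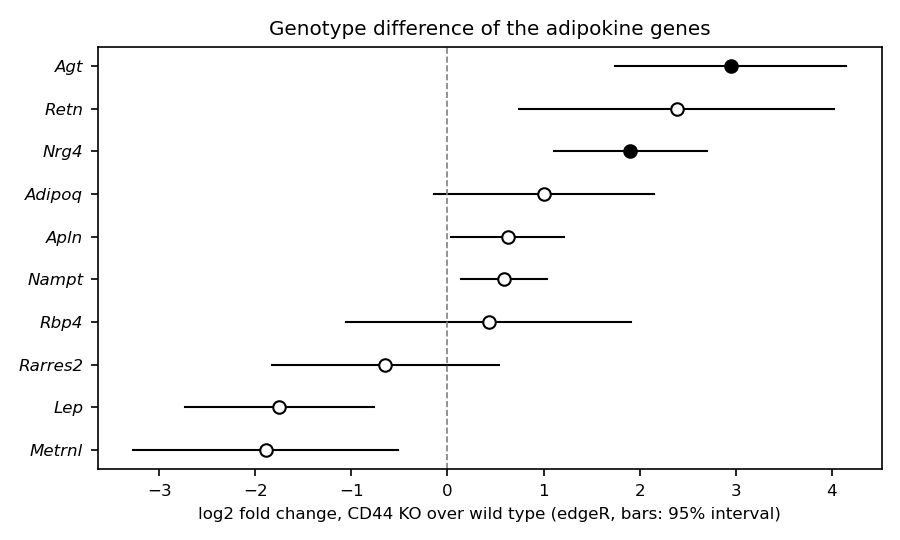
Log2 fold change of CD44 KO over wild type on the horizontal axis for each of the 10 adipokine genes, with 95% intervals as bars. Agt (2.95) and Nrg4 (1.90) passed the adjusted threshold. Lep (-1.75) and Metrnl (-1.89) had intervals below 0, and Retn (2.38), Nampt (0.59) and Apln (0.63) intervals above 0, but these did not pass.

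The authors' deposited table gives adjusted p-values of 5.25e-08 for Agt, 1.01e-05 for Nrg4, 0.000264 for Lep, 0.00202 for Retn and 0.00881 for Metrnl. In the authors' deposited table Nampt has 0.0608, Adipoq 0.127, Apln 0.168, Rarres2 0.392 and Rbp4 0.728. Before adjustment, the authors' p-values equal those of the DESeq2 fit described above after rounding (6.4e-06 for Lep in both). The deposited p-values therefore repeat that fit and are not independent support. DESeq2 called 19.7% of all genes it tested there. Log2 fold changes in the authors' deposited table, such as -1.79 for Lep and 2.90 for Agt, lie near those given above. They match the log2 ratio of the mean FPKM of the genotypes, a different measure from the edgeR estimates.

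The libraries of a genotype differed among themselves in a shared order for several members. Lep, Adipoq, Retn, Rbp4, Rarres2, Nrg4 and Agt all had their highest wild type level in replicate 1 and their lowest in replicate 2, while Metrnl was lowest in replicate 1. In CD44 KO fat Lep and Metrnl were highest in replicate 1, and Adipoq, Retn, Rbp4, Rarres2, Apln and Agt in replicate 3. The adipocyte marker sum was highest in replicate 1 and lowest in replicate 2 in wild type, and highest in replicate 3 in CD44 KO. The endothelial and smooth muscle marker sums had the same wild type order, and the part of these cells was not tested.

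**Figure D4:**
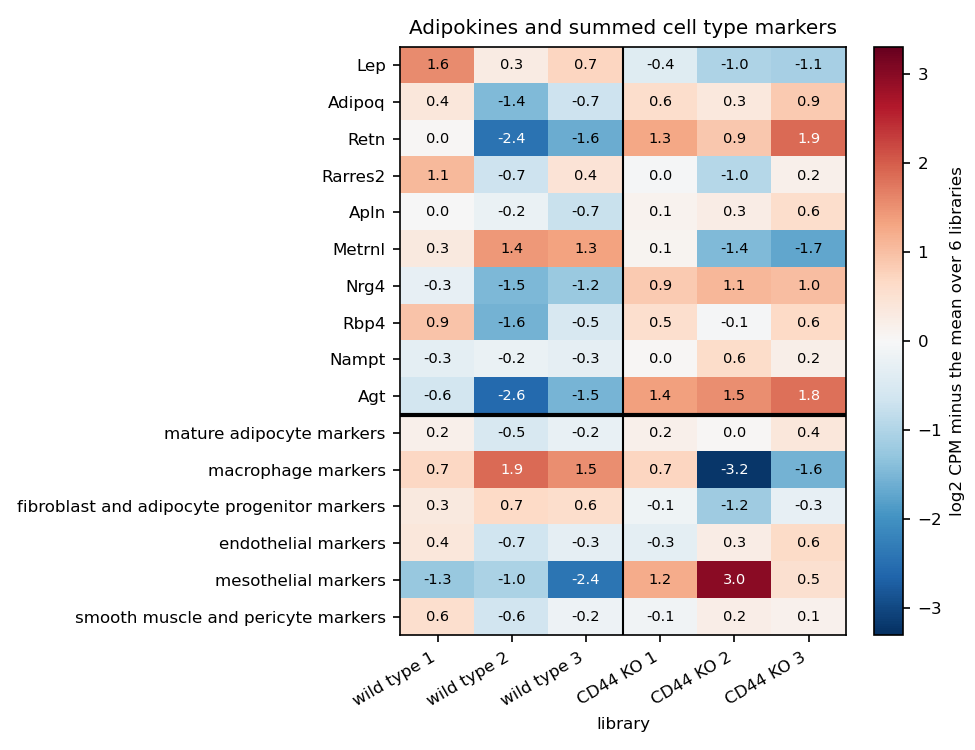
Log2 CPM minus the mean over the 6 libraries, as colour and number, for the 10 adipokine genes and 6 summed marker lists in rows and the 6 libraries in columns. Lep lies below 0 in every CD44 KO library, Agt and Nrg4 lie above 0 in every one, and the macrophage markers are lowest in CD44 KO replicate 2.

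No receptor of these hormones passed the edgeR test with all 6 libraries. Of 16 listed, 12 were tested and 0 were called (unadjusted, 3 higher and 2 lower; by DESeq2, also 3 higher and 2 lower), with 7 positive and 5 negative fold changes. The lowest p belonged to Adipor2, an adiponectin receptor, with 583, 359 and 439 CPM in wild type and 871, 822 and 1137 CPM in CD44 KO (log2 fold change 1.04, edgeR adjusted p = 0.0748). Ccrl2 and Cmklr1, which both bind chemerin, gave -1.40 and 0.66 (log2 fold changes, edgeR adjusted p = 0.0860 and 0.0924). Of the ErbB receptors, which are named for Nrg4 after their values were seen, Erbb4 had 0 counts in all 3 wild type libraries and 0.356, 1.56 and 1.42 CPM in CD44 KO and was not tested. Erbb3 reached 62.3 CPM in CD44 KO replicate 2, the library with the epididymis markers, against 3.38 and 1.55 CPM in replicates 1 and 3.

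Among 15 tested of 19 other secreted adipokines, 5 had positive and 10 negative fold changes, with a median log2 fold change of -0.47. EdgeR called 2 higher and 0 lower (3 higher and 4 lower unadjusted, 2 higher and 3 lower by DESeq2). Without CD44 KO replicate 1 it called 2 higher and 2 lower, in a fit that called 2370 genes in all. Vegfa, the main growth factor of blood vessels, had 58.5, 39.9 and 30.6 CPM in wild type and 114, 185 and 199.97 CPM in CD44 KO (log2 fold change 1.95, edgeR adjusted p = 0.0415). Cfd, the complement factor adipsin, had 740.0, 104 and 249 CPM in wild type and 8013, 6802 and 14872 CPM in CD44 KO (log2 fold change 4.76, edgeR adjusted p = 0.0473). Without each of wild type replicates 2 and 3 and CD44 KO replicates 2 and 3, edgeR called 0 of the 15. Those fits called 9, 0, 100 and 7 genes in all. Of the 11 tested C1q/TNF-related genes, paralogs of Adipoq, 2 had positive and 9 negative fold changes, and 0 were called by edgeR (unadjusted, 1 higher and 5 lower; by DESeq2, 1 higher and 4 lower). The lowest p values in that family were those of C1qtnf6 (log2 fold change -1.74, edgeR adjusted p = 0.0791), C1qa (-2.10, adjusted p = 0.102) and C1qtnf1 (-0.66, adjusted p = 0.112), and C1qa is a complement gene that macrophages make.

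Of the genes that act downstream of leptin, edgeR called 0 of 8 (unadjusted, 3 higher and 1 lower; by DESeq2, 1 higher and 1 lower). Stat5a, a transcription factor, had the lowest p (log2 fold change 0.83, edgeR adjusted p = 0.0522), followed by Ptpn1, the phosphatase that damps leptin signalling (-0.995, adjusted p = 0.0913), and Sh2b1 (0.37, adjusted p = 0.142). Of 11 tested genes of adiponectin assembly and signalling, 0 were called (1 higher and 3 lower unadjusted, 1 higher and 2 lower by DESeq2). After Adipor2, given above, the lowest p values were those of the lysyl hydroxylases Plod3 (log2 fold change -0.72, edgeR adjusted p = 0.0848) and Plod1 (-0.98, adjusted p = 0.0942).

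Of 13 other genes of NAD metabolism, not all of them in salvage, 0 were called by edgeR (4 higher and 2 lower unadjusted, 1 higher and 2 lower by DESeq2). The lowest p values were those of Nmrk1 (log2 fold change 0.88, edgeR adjusted p = 0.0920), Qprt (-1.72, adjusted p = 0.0991) and Naprt (0.90, adjusted p = 0.116). Of 11 tested retinol and retinoic acid genes, the pathway of Rbp4, 0 were called (5 higher and 2 lower unadjusted, 4 higher and 2 lower by DESeq2). Cyp26b1, which degrades retinoic acid, had a log2 fold change of 1.39 and Aldh1a2, which makes it, one of -1.30 (edgeR adjusted p = 0.0560 and 0.0591), with Rxra next (0.77, adjusted p = 0.0875).

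In the renin-angiotensin system, whose substrate is Agt, edgeR called 0 of 9 tested genes (2 higher and 2 lower unadjusted, 1 higher and 2 lower by DESeq2). Atp6ap2, the prorenin receptor, had a log2 fold change of -1.15 and Anpep, a peptidase that macrophages also carry, one of -2.85 (edgeR adjusted p = 0.0988 and 0.105).

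Among 12 regulators of adipokine genes, 10 had positive and 2 negative fold changes. EdgeR called 1 higher and 0 lower (unadjusted, 6 higher and 1 lower; by DESeq2, 5 higher and 1 lower). Without wild type replicate 1 it called 2 higher and without CD44 KO replicate 1 it called 3 higher, in fits that called 310 and 2370 genes in all. The gene called with all libraries was Ppargc1a, a transcriptional coactivator of mitochondrial genes, with 0.884, 1.51 and 1.25 CPM in wild type and 3.92, 7.03 and 6.41 CPM in CD44 KO (log2 fold change 2.24, edgeR adjusted p = 0.0438). Without each of wild type replicates 2 and 3 and CD44 KO replicates 2 and 3, edgeR called 0 of the 12, where it called 9, 0, 100 and 7 genes in all. The list median of 0.86 compares with 0.65 for the 13 adipocyte markers, of which edgeR called 0 (6 higher unadjusted, 6 higher and 1 lower by DESeq2).

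Some genes followed a member closely over the 6 libraries, as a description among 9551 genes that averaged 10 CPM or more. Nearest to Lep were Insig1, an endoplasmic reticulum protein of sterol control (Pearson r of log2 CPM 0.997), Lbp (0.993) and Lpgat1 (0.991), and 94 genes had r above 0.95. Nearest to Adipoq were Isoc1 (0.998), Ndufaf3 (0.997) and Atp6v0e2 (0.996), with 257 genes above 0.95. Nrg4 was nearest to Plin4, a lipid droplet coat protein (0.9996), Aifm1 (0.999) and Chst1 (0.997), with 383 genes above 0.95. Agt was nearest to Acsm5 (0.999), Nnat (0.997) and Cfd (0.996), with 453 genes above 0.95. Genotype and the marker sums differ across the 6 libraries, and their part in these values was not tested.

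**Figure D5:**
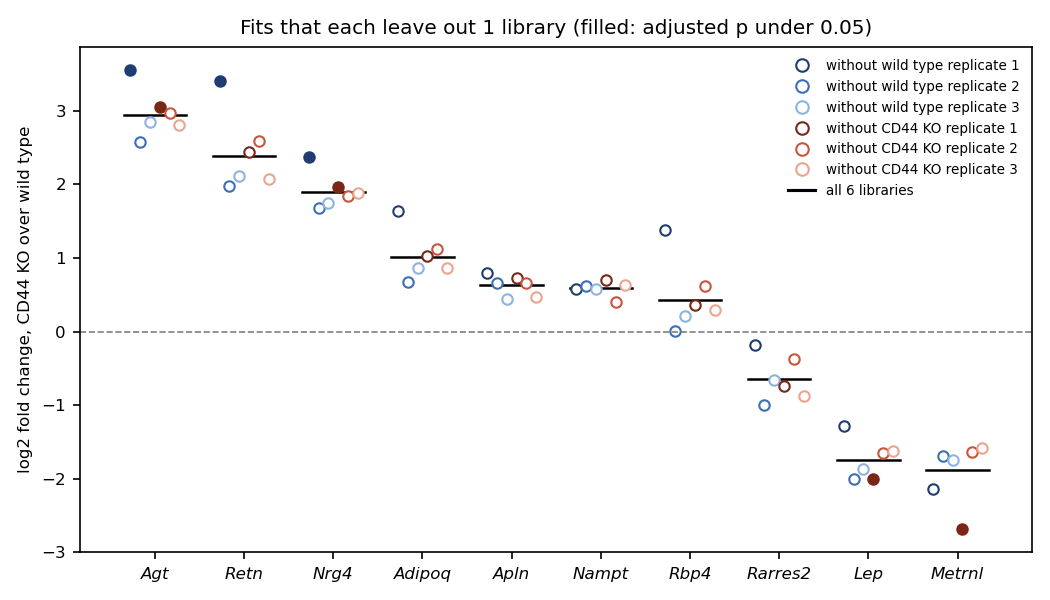
Log2 fold change of each of the 10 adipokine genes on the vertical axis in all 6 libraries and after leaving out each library in turn, where filled points pass an edgeR adjusted p of 0.05. Each member has 1 sign throughout; Agt and Nrg4 pass with wild type replicate 1 or CD44 KO replicate 1 left out.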

How the data were processed

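Poly(A) RNA libraries from epididymal fat of 3 wild type and 3 CD44 KO mouse samples were grouped by the genotype in the labels. Tools listed in the submitters' processing notes, with no role stated, are RSEM, HISAT2, DESeq2 and StringTie 1.3.1. The sources used here do not give the genome build, annotation or strandedness. The deposited expression table holds the authors' counts per gene, which are not all whole and were taken as estimated counts, and FPKM values, per the file headers. The authors' comparison table holds the same counts as whole numbers, a log2 fold change and an adjusted p-value, per the file headers.

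The expected counts were rounded to whole numbers, filtered with edgeR's filterByExpr, scaled by TMM and tested with edgeR's quasi-likelihood test (edgeR 4.0.16, R 4.3.3), with the Benjamini-Hochberg adjustment over all 13829 tested genes and a threshold of 0.05. CPM values used the TMM-scaled library sizes. Depth was 15543317 to 18765009 counts per library. The steps were tested on simulated data. The members and gene lists were chosen with earlier results of these data known. Named genes were the members, Cd44, every called gene of a pathway list or else the 3 of lowest p, detected paralogs of Retn and Adipoq, the 3 genes most alike to Lep, Adipoq and each called member, and the 2 most abundant genes of a marker list; 1 gene that this rule names is not reported here. Likeness used log2 CPM with a prior count of 2. Alternatives were other scalings, DESeq2 1.42.0, no filter, limma 3.58.1 on log2(FPKM + 1) and log2(FPKM + 0.1), a replicate block and each library left out. Gene positions are from GENCODE M21 (GRCm38), which matched 22267 of 22322 identifiers; promoter windows are RefSeq's on GRCm38.p6, found for 9 of 10 members.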

Additional observations from a re-analysis of the deposited data

How the results depend on the processing

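In none of the 13 alternatives did a member change sign. Agt and Nrg4 were called in 7 of 13 each, with edgeR, limma or DESeq2 adjusted p from 4.33e-08 to 0.247 and from 8.33e-06 to 0.247. DESeq2 called 2946 genes in place of 362, 5 members in place of 2 and 37 listed pathway genes in place of 3. With no filter on low counts the calls were 230, 0 and 1. With the replicate number as a block they were 0, 0 and 0, and Cd44 had a log2 fold change of -7.17 (edgeR adjusted p = 0.0543). The labels do not say whether equal numbers share a litter, cage or day. Deviations of same-numbered libraries from their genotype means correlated at -0.321, -0.218 and -0.0176. These values cannot show whether the samples are paired, since deviations within a genotype depend on each other. Leaving out 1 library gave 0 to 2370 genes, 0 to 4 members, 0 to 24 listed genes and a Cd44 log2 fold change of -7.58 to -6.75. The cause was not tested. Without CD44 KO replicate 1, in the fit with 2370 genes, edgeR called genes in pathway lists that had 0 called with all libraries. Receptors had 1 higher and 1 lower, C1q/TNF-related genes 4 lower and leptin signalling 1 higher. Adiponectin genes had 1 lower and NAD genes 1 higher and 1 lower. Retinol genes had 3 higher and 1 lower, and renin-angiotensin genes 1 higher and 2 lower. Leptin signalling also had 1 higher without wild type replicate 1. With upper-quartile scaling the median log2 fold change of all tested genes was 0.104, the highest of the scalings. Depth limits Erbb4 and other genes near 0 counts.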
